A study of Mus musculus with 9 samples.

Results

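The unexposed olfactory bulb was described from the 3 control arrays of a series of 9 microRNA arrays. The other 6 arrays, of bulbs from mice that had inhaled formaldehyde, were not used here. Each control array holds labelled total RNA of the bulb of male ICR mice, an outbred strain, aged 8 weeks and kept in the exposure chamber's conditions without formaldehyde. The labels call the group normal, give no genetic modification or further agent for it, and do not say whether each array holds a separate mouse, so the spread between arrays may be partly technical. Members were the probes whose name in the array's design marks a mouse miRNA, which are 1027 of the 2673 features of the array. The question was which miRNAs, which arms of their hairpins and which families make up the signal of the bulb at rest.

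The olfactory bulb is the part of the forebrain that receives the axons of the olfactory sensory neurons of the nose and, unlike most of the adult brain, keeps taking in newly born interneurons. A miRNA is cut from an RNA hairpin, which can yield a mature strand from its 5′ side (5p) and another from its 3′ side (3p). The strand that stays in the silencing complex pairs with messenger RNAs mainly through its seed, bases 2 to 8, and lowers their translation and stability. miRNAs that share a seed form a family with overlapping targets. In the brain miR-124 and miR-9 are known as neuronal miRNAs, and the miR-200 family is known from epithelia and, in mouse and zebrafish, from the maturation of olfactory neurons.

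The sequences below are those on which the description turns, grouped by seed, with the seed in capitals and each read 5′ to 3′ from RefSeq (GRCm38.p6). The largest group by signal is the miR-200 family, whose members carry 1 of 2 seeds that differ at a single base and lie in 2 hairpin clusters. The AACACUG seed is carried by miR-141-3p (chr6:124717917-124717938, minus strand) and miR-200a-3p (chr4:156054911-156054932, minus strand). The AAUACUG seed is carried by miR-200c-3p (chr6:124718324-124718346, minus strand), miR-200b-3p (chr4:156055685-156055706, minus strand) and miR-429-3p (chr4:156053916-156053937, minus strand). On chromosome 4 the hairpins lie within the long noncoding RNA gene Gm13648.
miR-141-3p: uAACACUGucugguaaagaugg
miR-200a-3p: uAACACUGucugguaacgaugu
miR-200c-3p: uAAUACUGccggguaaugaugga
miR-200b-3p: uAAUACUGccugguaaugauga
miR-429-3p: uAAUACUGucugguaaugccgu

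The strands of miR-9 are shown because both arms of this hairpin were among the brightest probes, and each has a seed of its own. The same mature sequences come from 3 genes, Mir9-1 (5p at chr3:88215613-88215635), Mir9-2 (chr13:83738821-83738843) and Mir9-3 (chr7:79505279-79505301), all on the plus strand. The guide strands of miR-183, miR-96 and miR-182, which are made from 1 cluster known for its expression in sensory organs, follow them. They lie at chr6:30169711-30169732, chr6:30169506-30169528 and chr6:30165962-30165986, all on the minus strand and outside other annotated genes, and each has a different seed.
miR-9-5p: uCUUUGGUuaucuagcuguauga
miR-9-3p: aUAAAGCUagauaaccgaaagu
miR-183-5p: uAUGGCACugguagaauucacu
miR-96-5p: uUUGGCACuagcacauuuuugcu
miR-182-5p: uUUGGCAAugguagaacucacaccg

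The let-7 family, known for promoting differentiation and for its increase as tissues mature, is shown because its members differ by few bases while their probes gave unlike levels. All 9 probes of let-7 and miR-98 carry the GAGGUAG seed. Among them let-7g lies within Wdr82 (chr9:106178846-106178867, plus strand), let-7b within the noncoding RNA gene Lncppara (chr15:85707325-85707346, plus strand), let-7e within Spaca6 (chr17:17830366-17830387, plus strand) and miR-98 within Huwe1 (chrX:151913229-151913250, plus strand). let-7i (chr10:122985698-122985719, minus strand), let-7a of the gene Mirlet7a-1 (chr13:48538239-48538260, minus strand) and let-7d (chr13:48536078-48536099, minus strand) lie outside other annotated genes. Another let-7a hairpin, that of let-7a-2-3p, lies in a cluster with miR-100 (chr9:41531425-41536811, plus strand).
let-7a-5p: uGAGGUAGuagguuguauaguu
let-7b-5p: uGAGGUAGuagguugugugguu
let-7d-5p: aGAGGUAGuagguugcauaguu
let-7e-5p: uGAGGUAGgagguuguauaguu
let-7g-5p: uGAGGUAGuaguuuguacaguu
let-7i-5p: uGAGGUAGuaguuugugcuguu
miR-98-5p: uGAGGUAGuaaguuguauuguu

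The remaining strands shown are those of bright probes with a known family or place in the genome. miR-125a-5p (chr17:17830817-17830840, plus strand, within Spaca6 beside let-7e) and miR-125b-5p (chr9:41581940-41581961 and chr16:77646279-77646300, both plus strand) are mammalian relatives of the worm timing miRNA lin-4. miR-30c-5p comes from chr4:120769584-120769606 (minus strand, within Nfyc) and chr1:23291714-23291736 (plus strand). miR-690 lies within Fgf12 (chr16:28599940-28599961, minus strand) and shares its seed with no other matched probe.
miR-125a-5p: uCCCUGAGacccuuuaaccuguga
miR-125b-5p: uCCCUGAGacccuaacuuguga
miR-30c-5p: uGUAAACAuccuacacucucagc
miR-690: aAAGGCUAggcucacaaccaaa

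A level here is the foreground minus background intensity of a probe, averaged over its 4 spots. The brightness of a probe depends on how well it binds its strand as well as on the amount of that strand, so the order of probes within an array is an order of signal and not of molecule numbers. Median background was 41, 38 and 35 on control replicates 1, 2 and 3. A probe was counted as detected on an array at a level of at least 30, a value that 0, 1 and 10 of the 1108 spots without a probe reached. Control replicate 2 stood apart from the others. Over the 400 probes detected on all arrays, log2 levels correlated across probes with Pearson's r = 0.94 between replicates 1 and 3. The r was 0.86 between 1 and 2 and 0.81 between 2 and 3 (across miRNAs of the same arrays, which are not independent replicates). The foreground values of 2 arrays were equal at no fewer than 1.74% and no more than 4% of spots, so the arrays were kept as separate samples. The main summary values that rest on replicate 2 are given with and without it.

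Of the 1027 mouse miRNA probes, 475, 520 and 461 were detected on replicates 1, 2 and 3, or 46.3%, 50.6% and 44.9%. All 3 arrays detected 400 probes (38.9%), 73 were detected on 2 arrays, 110 on 1 array, and 444 on none. Support from the spots was broad: on the 3 arrays 431, 477 and 401 of the detected probes had all 4 spots at the limit or above, and 0, 1 and 13 rested on 1 spot. Just inside the limit, by their lowest array, were miR-17-3p (30.0), miR-381-5p (30.25) and miR-376c-3p (30.5). Just outside it were miR-221-5p (29.75), miR-1193-3p (29.25) and miR-1903 (29.0).

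The limit separates signal from empty spots, not from cross-hybridisation. Mouse miRNA probes were detected on all arrays in 38.9% of cases, against 17.5% (10 of 57) for probes of miRNAs of mouse cytomegalovirus and mouse gammaherpesvirus, for which the labels name no infection, and 0 of 7 negative control probes. At a level of 100 on all arrays the counts were 255 mouse miRNA probes (24.83%) and 2 viral probes (3.51%), at 300 they were 127 (12.37%) and 1 (1.75%), and at 1000 they were 52 (5.06%) and 0. The brightest viral probe, mghv-miR-M1-8, had 930.25, 2045.75 and 441.75, and 77, 32 and 141 mouse miRNA probes were brighter than it on the 3 arrays. A mouse probe at such levels or below is therefore named with its value and not with a verdict on its presence. Another 1495 features have no name in the deposited table and were left out, although their summed level was 91.4%, 90.5% and 71.2% of that of the mouse miRNA probes.

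The signal was concentrated in few probes. The 10 brightest probes of an array held 30.74%, 45.22% and 29.89% of its summed mouse miRNA signal (35.3% on average, and 30.3% without replicate 2). On replicates 1, 2 and 3, 25, 13 and 25 probes together held 50% of the signal, and the 100 brightest held 81.65%, 82.82% and 81.4%. In the concentration of signal, replicate 2 differed from the other arrays mainly at the top. Its brightest 30 probes held 66.13%, against 55.48% and 55.17%, while the shares of the brightest 100 were close.

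**Figure D1:**
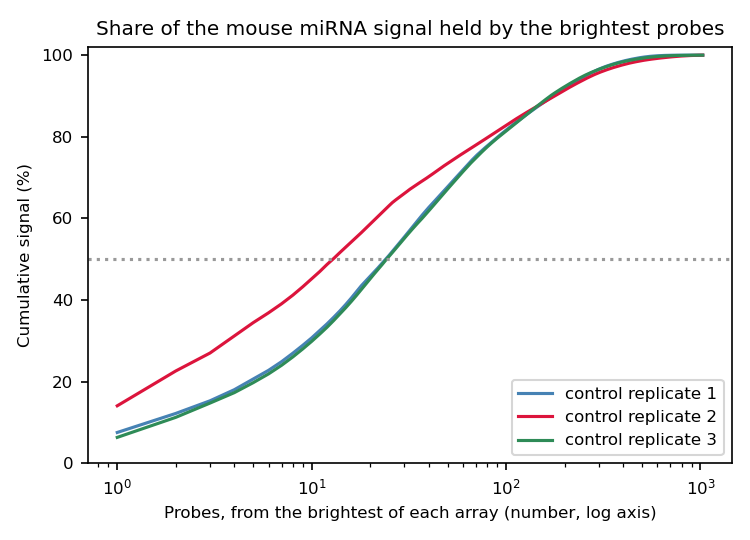
The curves show, for each control array, the percentage of the summed mouse miRNA signal held by its brightest probes (vertical axis) against the number of probes counted from the brightest (horizontal axis, log scale). The curve of control replicate 2 lies above the others over the brightest probes, with 45.22% at 10 probes, and the 3 curves are close at 100 probes. The dotted line marks 50%.

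Among the mouse miRNA probes, the brightest on every array was that of miR-124-3p, a neuronal miRNA that lowers non-neuronal transcripts in neurons. It had 29495, 65494.8 and 24206 on control replicates 1, 2 and 3, which is 7.57%, 14.11% and 6.37% of the signal. On replicate 2 all 4 of its spots were saturated at a foreground of 65535, so that its value there is a lower bound. The next probe on every array was miR-9-3p, the 3p strand of a hairpin known for its part in neural progenitors and neurons, with 18169.8, 39627.2 and 18652. Its level was higher on replicate 2 than on the other arrays, as was that of miR-124-3p.

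Next by mean rank were miR-141-3p, miR-200a-3p, miR-125b-5p and miR-200c-3p. miR-141-3p had 12048.5, 19453.5 and 13287.2, and ranked 3, 4 and 3 on the 3 arrays. miR-200a-3p had 10191.8, 10258.5 and 9267.2, and miR-200c-3p had 7538.5, 11255.8 and 9706.0. The other members of the miR-200 family were close behind, miR-429-3p with 6047.2, 9082.5 and 4897.8 and miR-200b-3p with 6103.8, 2345.2 and 6368.5. The miR-200 family, best known for holding cells in an epithelial state by repressing the Zeb transcription factors, thus had all 5 of its 3p strands among the 30 brightest probes of the bulb. In dissected tissue, more cells that hold a miRNA and more of it per cell cannot be told apart.

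All 3 guide strands of the sensory cluster were also among the 30 brightest. miR-96-5p, a miRNA whose seed mutations cause hearing loss in mice and humans, had 6367.5, 8145.8 and 8200.0. miR-182-5p had 5607.0, 6818.8 and 5710.8, and miR-183-5p had 3355.2, 4182.0 and 4729.8. Replicate 2 was the highest array for miR-182-5p only, and all 3 probes ranked between 6 and 30 on every array.

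The brightest 30 also held both miR-125 strands, 4 members of let-7, 2 of miR-30, and single members of other families. miR-125b-5p, known from neural differentiation, had 10582.0, 9807.8 and 7985.0, and miR-125a-5p had 7069.8, 6171.8 and 6399.5. miR-30c-5p had 6045.5, 9554.0 and 5466.8 and miR-30d-5p 3631.8, 2519.5 and 3075.2. The probe of miR-129-1-3p, whose relatives are known from neurons, had 4304.0, 4228.8 and 6155.0. The levels of miR-101a-3p, known to repress the chromatin enzyme Ezh2, were 4412.8, 4944.5 and 5070.8.

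Of the widely expressed miRNAs, miR-22-3p had 3994.5, 5069.5 and 4086.5, miR-23b-3p had 3736.0, 4459.0 and 4169.8, and miR-29a-3p, a repressor of collagen transcripts, had 3584.5, 5935.5 and 2937.0. miR-191-5p had 3243.0, 6869.2 and 3538.0, with replicate 2 the highest as for miR-29a-3p. miR-451, known from red blood cells and cut by Argonaute2 and not by Dicer, had 3851.0, 5078.5 and 3656.8.

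Some of the 30 brightest probes carry names that later work placed elsewhere or that have no established role in the brain. miR-720, known today as a fragment of a transfer RNA, had 8250.8, 20394.8 and 7034.5. miR-690 had 8292.5, 15036.5 and 7801.5, miR-709 had 6420.0, 8188.5 and 5573.2, and miR-1983 had 3356.2, 5239.5 and 3588.8. All of them were brightest on replicate 2. Together miR-690, miR-709 and miR-720 held 5.90%, 9.39% and 5.37% of the signal (6.89% ± 2.19, SD, n = 3 arrays, and 5.63% without replicate 2).

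**Figure D2:**
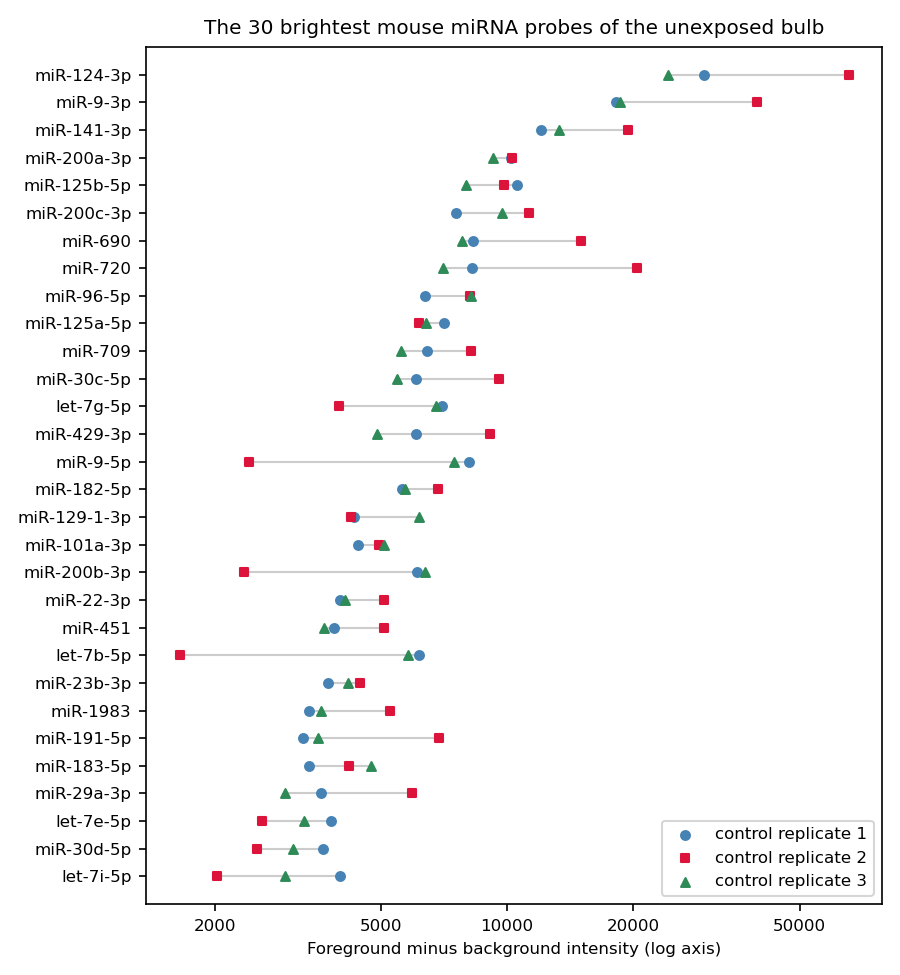
Points show the foreground minus background intensity (horizontal axis, log scale) of the 30 mouse miRNA probes with the smallest mean rank, 1 point per control array, with a line over the range. miR-124-3p and miR-9-3p stand above all others on every array, and replicate 2 lies apart from the other arrays upwards for some probes, such as miR-124-3p, miR-720 and miR-9-3p, and downwards for others, such as let-7b-5p, miR-9-5p and miR-200b-3p.

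The membership of the top was shared between arrays while its order was not. Of the 30 brightest probes, 25 were among the 30 brightest of all 3 arrays, as were 8 of the 10 brightest and 69 of the 100 brightest. Without replicate 2 the count for the 30 brightest was 28. Of the 29 pairs of neighbours in the mean order, 4 kept their order on all 3 arrays, 15 on 2 arrays and 10 on fewer. Beyond miR-124-3p and miR-9-3p, a difference of a few ranks is therefore within the spread between arrays. Of the 30 names, 13 are 5p strands, 12 are 3p strands and 5 give no arm.

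Grouped by seed, the largest shares of the signal belonged to a few families. RefSeq gave a mature sequence for 801 of the 1027 probes, with 677 seeds, of which 78 were shared by several probes. Probes without a match, miR-124-3p among them, held 26.3% ± 5.31 of the signal and are in no family. The 10 seeds with the largest mean share together held 37.5%, 36.0% and 37.32% of the signal.

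The UAAAGCU seed, represented by miR-9-3p alone, held 4.67%, 8.54% and 4.91% (4.79% on average without replicate 2). The 2 seeds of the miR-200 family held close shares on every array: AACACUG (miR-141-3p and miR-200a-3p) held 5.71%, 6.40% and 5.93%, and AAUACUG (miR-200c-3p, miR-429-3p and miR-200b-3p) held 5.06%, 4.89% and 5.52%. Added together, the miR-200 family held 10.76%, 11.28% and 11.45% of the signal, or 11.17% ± 0.36. Its SD was small beside that of miR-124-3p (9.35% ± 4.16) and of the 9 let-7 and miR-98 strands (5.79% ± 2.80). Without replicate 2 the means were 11.11% for the miR-200 family, 6.97% for miR-124-3p and 7.40% for let-7 and miR-98.

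The let-7 seed GAGGUAG had 10 probes, 9 of them detected on all arrays, and held 7.66%, 2.57% and 7.17%. It was thus the largest seed on replicates 1 and 3 and not on replicate 2, and its mean was 7.41% without replicate 2 and 5.80% ± 2.81 with it. The CCCUGAG seed of miR-125b-5p, miR-125a-5p and miR-351-5p held 4.06% ± 0.62. The AAGGCUA seed of miR-690 held 2.47% ± 0.66. The GUAAACA seed of the miR-30 family, which is expressed in many tissues, held 2.43% ± 0.02 through its matched probes, miR-30c-5p, miR-30e-5p, miR-30a-5p and miR-384-5p. Taken by name, the 5p strands of miR-30a to miR-30e, which include the unmatched miR-30b-5p and miR-30d-5p, held 4.05%, 3.72% and 3.89% (3.89% ± 0.16).

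Smaller shares belonged to UUGGCAC (miR-96-5p, 1.85% ± 0.27), AGCACCA (miR-29a-3p, miR-29b-3p and miR-29c-3p, 1.57% ± 0.17) and AGCAGCA (1.56% ± 0.27), the seed of the miR-15 and miR-16 family known as a brake on the cell cycle. In that last family miR-15a-5p had 3267.8, 1869.8 and 3545.2, miR-16-5p had 2877.2, 3543.5 and 2353.0, and miR-15b-5p had 592.5, 362.0 and 518.5. miR-195-5p, a relative known by name, had 1850.5, 1621.0 and 2024.0 (0.45% of the signal on average) and is not in that share, since seed shares count matched probes only. A seed's share rested on its brightest member to different degrees. miR-125b-5p made up 57.0% of the share of its seed, whereas let-7g-5p made up 27.2% of the let-7 share.

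The shares can also be read along the genome, where hairpins within 10 kb of each other on 1 strand are often cut from the same primary transcript. The pair of miR-200c and miR-141 (chr6:124717914-124718390, minus strand) held 5.98% ± 0.80 of the signal over its 4 probes, and the trio of miR-200b, miR-200a and miR-429 (chr4:156053905-156055750, minus strand) held 5.43% ± 0.59 over 6 probes. The sensory cluster of miR-183, miR-96 and miR-182 (chr6:30165918-30169737, minus strand) held 4.41% ± 0.53. Let-7e and miR-125a (chr17:17830352-17830879, plus strand) together held 2.45% ± 0.47, and miR-30c and miR-30e (chr4:120769534-120772697, minus strand) 2.42% ± 0.10. Shares of hairpins with several genomic copies, such as miR-30c, cannot be divided among the copies, because the mature strands are identical.

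A pair of large clusters lies on distal chromosome 12, in the imprinted Dlk1-Dio3 region, whose miRNAs are expressed from the maternal chromosome and are known from brain and placenta. One of them (chr12:109709060-109747960, plus strand) has 34 hairpins with 62 probes, of which 31 were detected on all arrays, and held 2.31% ± 0.39 of the signal. The other (chr12:109563692-109595388, plus strand) has 12 hairpins with 23 probes, of which 13 were detected, and held 1.81% ± 0.38. Of all mouse miRNA probes, 38.9% were detected on all arrays. The brightest probes of this region were miR-434-3p, with 1711.8, 1894.5 and 2076.0, and miR-127-3p, with 1591.0, 1614.2 and 1935.2. In the larger cluster miR-376a-3p had 575.8, 746.0 and 904.8, miR-541-5p had 509.5, 711.8 and 746.8, and miR-381-3p had 656.8, 444.8 and 916.5. None of these 5 probes was among the 30 brightest of an array.

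For each hairpin whose 5p and 3p probes share the same name apart from the arm, the brighter arm was recorded on every array. Arms named with and without a copy number, such as miR-125b-5p and miR-125b-2-3p, were not paired and are not counted. Of 375 such hairpins, 226 had at least 1 arm detected on all arrays. The 5p probe was the brighter on all arrays in 98 of them, the 3p probe in 111, and the arrays differed in 17. Both arms were detected on all arrays in 76 hairpins, where the 5p probe was the brighter in 34, the 3p probe in 30, and the arrays differed in 12. Since the probes of 2 arms differ in binding, the count describes signal and not which strand is kept.

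Among the paired hairpins, the 10 with the brightest arm show the range. For miR-124 the 5p probe had 243.5, 51.2 and 277.5, beside the 3p levels above. For miR-9 both arms were bright, with 8097.8, 2412.2 and 7466.0 for 5p and 18169.8, 39627.2 and 18652.0 for 3p, so that miR-9-5p also ranked 8, 30 and 9. The 3p probe was the brighter on all arrays, and the arms lay farthest apart on replicate 2. In miR-141 the 5p probe had 274.5, 261.2 and 400, and in miR-200a it had 83.2, 21.2 and 393.5.

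Several partner strands of bright miRNAs stayed under the detection limit. On replicates 1, 2 and 3 the probe of miR-96-3p had 5.5, 9.2 and 16.5, that of let-7g-3p had 0.2, 8.8 and 4.0, and that of miR-429-5p had 0.0, 10.8 and 3.0. Those of miR-200c-5p (16.2, 52.5 and 14.2) and miR-182-3p (10, 34.0 and 43.8) passed it on some arrays only. miR-125a-3p was detected on all, with 121.0, 120.5 and 117.0. In the miR-200 family all 5 hairpins had the brighter probe on the 3p side, and in the sensory cluster all 3 had it on the 5p side.

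**Figure D3:**
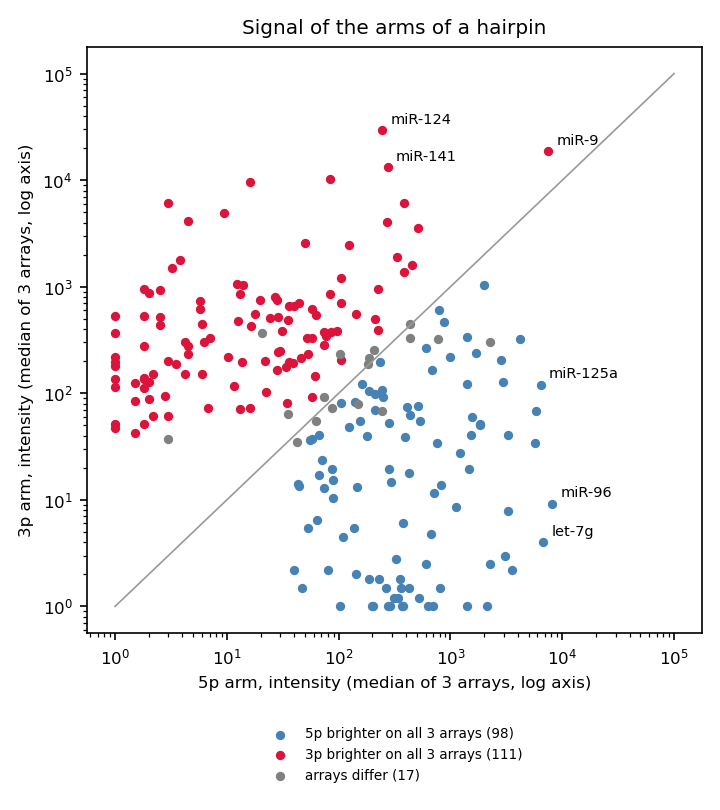
Each point is 1 of the 226 hairpins, placed by the median level over the 3 control arrays of its 5p probe (horizontal axis) and of its 3p probe (vertical axis), both log axes, with levels under 1 drawn at 1. Colours mark the 98 hairpins with a brighter 5p probe on all arrays, the 111 with a brighter 3p probe and the 17 on which arrays differed, and the line marks equal levels.

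miRNA numbers were given roughly in order of discovery. Of the paired hairpins, those numbered under 300 had a brighter 5p probe in 52 and a brighter 3p probe in 42 of 101. Those numbered 300 and over had them in 46 and 69 of 125. Detection itself fell with the number. Of probes numbered under 300, let-7 included, 50.3% (175 of 348) were detected on all arrays and they held 70.3% ± 3.61 of the signal. Of those from 300 to under 500, 46.4% were detected, with 11.8% of the signal, and of those from 500 to under 1000, 34.5%, with 12.9%. Of probes numbered 1000 and over, 19.1% (46 of 241) were detected on all arrays, close to the 17.5% of the viral probes, and they held 5.0% ± 1.02 of the signal.

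To describe the bulb by cell type, 19 lists of marker miRNAs were placed on the within-array ranks. Ranks are given as percentiles, where 100 is the brightest probe, averaged over the arrays. The lists were chosen with earlier results of these data known, so their placement does not check the labelled tissue. Of all mouse miRNA probes, 38.9% were detected on all arrays. All 9 neuronal strands were, with a median percentile of 95.4. Beside miR-124-3p and the miR-9 strands these included miR-128-3p, with 4631.0, 1247.0 and 4225.0, and miR-138-5p, which acts at dendritic spines, with 1919.2, 1618.8 and 1630.2. The lowest was miR-137-3p, with 166.0, 124.0 and 224.0. The neuronal list held 16.6%, 24.16% and 15.59% of the signal, mostly through miR-124-3p and miR-9-3p.

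The miRNAs that neuronal activity induces through CREB lay at a median percentile of 87.7. miR-132-3p had 599.5, 519.5 and 650.2, and miR-212-3p, made from the same transcript, had 324.2, 341.8 and 603.2. miR-7a-5p, known in mice for limiting Pax6 and with it the number of dopaminergic interneurons of the bulb, had 2112.8, 1686.0 and 2256.0, at percentile 96.2. miR-7b-5p, which has the same seed, had 67.0, 36.8 and 93.0. Both strands were detected on all arrays, and miR-7a-5p was the brighter probe on each.

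Glial lists were detected in part. Of the oligodendrocyte miRNAs, which drive myelinating cells to mature, miR-338-3p had 942.8, 514.5 and 1012.2 and was detected on all arrays. miR-219-5p had 164.0 and 169.5 on replicates 1 and 3 and 19.8, under the limit, on replicate 2. All 4 astrocyte-associated strands were detected, at a median percentile of 93.0, with miR-26a-5p at 1729.8, 965.5 and 1898.5 and miR-23a-3p at 857.8, 547.8 and 961.8. These strands are expressed in many tissues and are not defining for astrocytes.

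Blood and vessel markers were mostly detected. The 3 red blood cell strands were detected on all arrays at a median percentile of 91.6, led by miR-451, with miR-144-3p at 420.2, 1306.8 and 1069.8 and the probe shared by miR-3107-5p and miR-486-5p at 277.8, 333.0 and 277.5. They held 1.17%, 1.45% and 1.32% of the signal. miR-126-3p, the endothelial miRNA from the gene Egfl7, had 2465.5, 322.2 and 2713.2, while miR-126-5p was under the limit on replicate 2 with 23.8. The smooth muscle strands miR-143-3p (1503.0, 1219.0 and 1716.0) and miR-145-5p (156.5, 162.0 and 145.2) were steadier between arrays.

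Of 5 leukocyte and microglia strands 4 were detected, at a median percentile of 74.6 for the list. miR-150-5p, known from lymphocytes, had 367.8, 428.5 and 226.5, and miR-223-3p, known from myeloid cells, had 188.0, 180.5 and 120.8. miR-142-3p had 651.0, 35.8 and 379.0, with replicate 2 again far below the others. miR-155-5p, which immune activation induces, had 23.5, 18.8 and 4.8 and was not detected on any array. The list held 0.35%, 0.15% and 0.21% of the signal.

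Markers of other tissues and of the coverings of the bulb lay lower. Of the choroid plexus and ciliated cell strands, miR-204-5p had 435.8, 60.2 and 443.2, miR-34b-5p had 86.5, 60.8 and 110.5, miR-34c-5p had 69.0, 74.0 and 83.0, and miR-449a-5p was not detected. The mesenchymal strands miR-199a-5p and miR-214-3p had 150.5, 98.2 and 105.2, and 85.0, 73.5 and 50. Of the surface epithelium strands, miR-203-3p had 114.5, 80.2 and 88.2, and miR-205-5p was detected on 1 array only. The miR-200 family, which skin and airway epithelium share, was in the top 30. Which cells of the tissue its signal came from was not tested.

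Lists for tissues outside the brain were mostly undetected, with exceptions. Over all mouse miRNA probes 38.9% were detected on all arrays, and 17.5% of the viral probes. Detected on no array were 444 of the 1027 mouse miRNA probes and 33 of the 57 viral probes. The lists are short, so counts near these shares are not a result about a tissue. miR-122-5p, the liver miRNA, had 6.2, 21.2 and 12. In the striated muscle list 5 of 7 strands were undetected on every array, with miR-1a-3p at 7.5, 14.2 and 11.0, while miR-133b-3p had 125.5, 275.5 and 63.5 and miR-133a-3p 46.8, 184.5 and 32.2. Of 4 pancreas and endocrine strands only miR-375-3p was detected, with 56.0, 101 and 63.8.

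In the embryonic stem cell list 3 of 11 strands were detected on all arrays, against 38.9% of all mouse miRNA probes. They were miR-290-5p (514.8, 540.0 and 194.5), miR-302a-3p (135.8, 355.0 and 69.0) and miR-290-3p (76.5, 176.2 and 46.2). Other strands of this list, among them miR-293-3p, miR-294-3p, miR-302b-3p and miR-302c-3p, were detected on no array. Among relatives outside the list, miR-294-5p had 1623.8, 1393.5 and 457, miR-291a-5p had 347.2, 287 and 71.2, and miR-291b-5p had 280.8, 245.8 and 68.2. In the list of germ cell miRNAs from the X chromosome, miR-741-3p had 531.0, 388.5 and 583.2. In that list 7 of 9 strands were detected on no array, against 444 of all 1027 mouse miRNA probes. The brightest viral probe of the same array was exceeded by miR-294-5p on replicates 1 and 3 and by miR-741-3p on replicate 3, and not by the other strands given with values here.

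**Figure D4:**
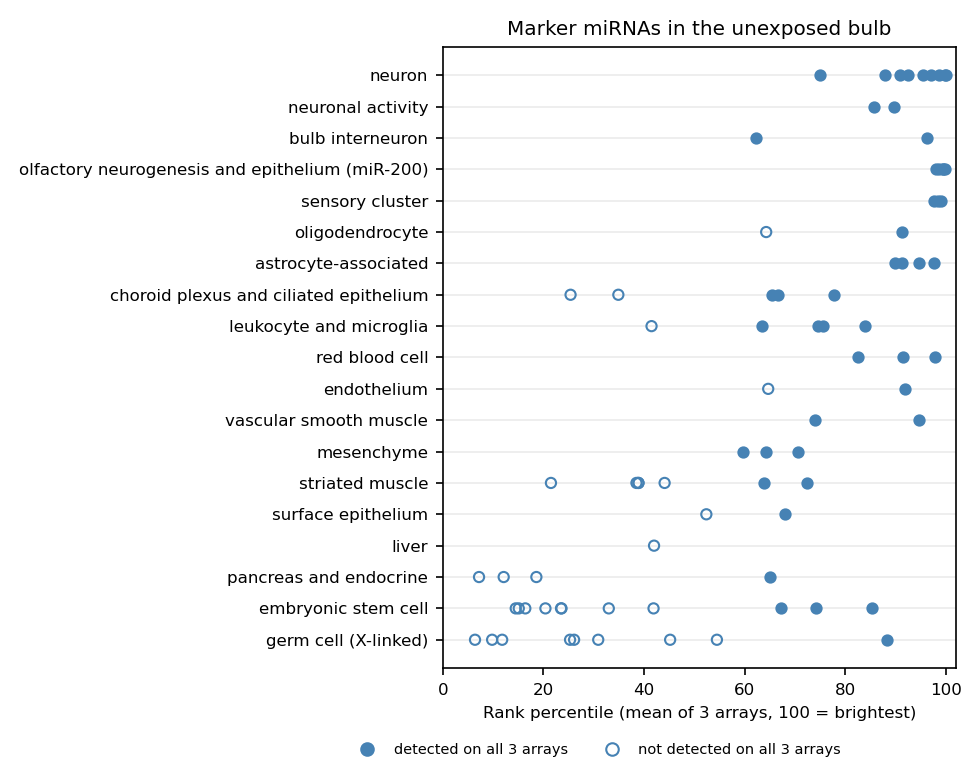
Each point is a marker miRNA, placed by the mean over the 3 control arrays of its rank percentile among the 1027 mouse miRNA probes (horizontal axis), in rows for the 19 lists. Filled points were detected on all 3 arrays, and the neuron, miR-200 and sensory rows lie at the bright end, with median percentiles of 95.4, 99.5 and 98.5.

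The spread between arrays was taken from log2 levels after background correction and quantile normalization, which gives probes of equal rank an equal value. The SD of miR-124-3p and miR-9-3p, which held the same rank on all arrays, is therefore 0 by construction. Over the 400 probes detected on all arrays the median SD was 0.33, with 283 probes under 0.5 and 26 over 1. The 30 brightest had a median SD of 0.295 and a highest of 0.918 (let-7b-5p). Spots of 1 probe on 1 array varied with a median CV of 16.8%, 14.9% and 13.6%.

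Replicate 2 made up much of that spread. It was the array farthest from the other 2 for 243 of the 400 probes, against 52 for replicate 1 and 105 for replicate 3. Between replicates 1 and 3 alone the median SD was 0.141, and 21 probes lay more than 1 apart on the log2 scale. Replicate 2 lay more than 1 below the mean of the others for 34 probes and more than 1 above it for 33. Quantile normalization gives the arrays the same distribution, so the near balance of these counts is not a result.

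The probe with the largest SD was miR-181a-5p, a miRNA known from lymphocytes and neurons, with 2833.0, 115.5 and 2458.5 and an SD of 2.16. Its 4 spots on replicate 2 read 93, 123, 125 and 121, so the low value did not come from 1 spot. miR-181d-5p, which has the same seed, had 2120.2, 1426.8 and 2101.8 and an SD of 0.10. Of the other probes among the 10 most variable, miR-30a-5p, miR-98-5p, miR-126-3p, let-7a-5p, let-7d-5p, miR-136-5p, miR-130a-3p and miR-29b-3p were all low on replicate 2, by 2.55 to 2.74 on the log2 scale. The exception was miR-1943-3p, with 1996.8, 613.5 and 95.2, for which replicates 1 and 3 differed most.

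The let-7 family shows the same within a set of near-identical strands. All 9 probes were lower on replicate 2 than the mean of the others, by a median log2 difference of -1.59. Of all 400 detected probes 196 were lower, with a median of 0.00, a balance that quantile normalization largely sets. The differences ran from -2.71 for miR-98-5p to -0.06 for let-7e-5p. let-7a-5p had 1431.5, 172.0 and 1593.0, and let-7e-5p, which differs from it at a single base, had 3791.5, 2587.5 and 3262.8. let-7g-5p had 6990.0, 3971.8 and 6767.0, let-7b-5p had 6146.5, 1649.0 and 5798.5, and let-7i-5p had 3993.2, 2023.2 and 2941.5.

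Other families were split on replicate 2 as well. In the miR-29 family miR-29a-3p was 0.94 higher there on the log2 scale, while miR-29b-3p was lower, at -2.55, and miR-29c-3p at -1.77. In the miR-30 family miR-30c-5p was 0.57 higher and miR-30a-5p was lower, at -2.74. The miR-200 family had 4 of 5 members lower, with a median of -0.20, and the sensory cluster 1 of 3, with a median of 0.17. Across the 303 detected probes with a matched sequence, GC content was set beside the differences between arrays. With the deviation of replicate 2 it had a Pearson's r of 0.18 and a Spearman's rho of 0.19. With the difference between replicates 1 and 3 it had 0.34 and 0.24. The probes share the same arrays, so these values are a description.

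**Figure D5:**
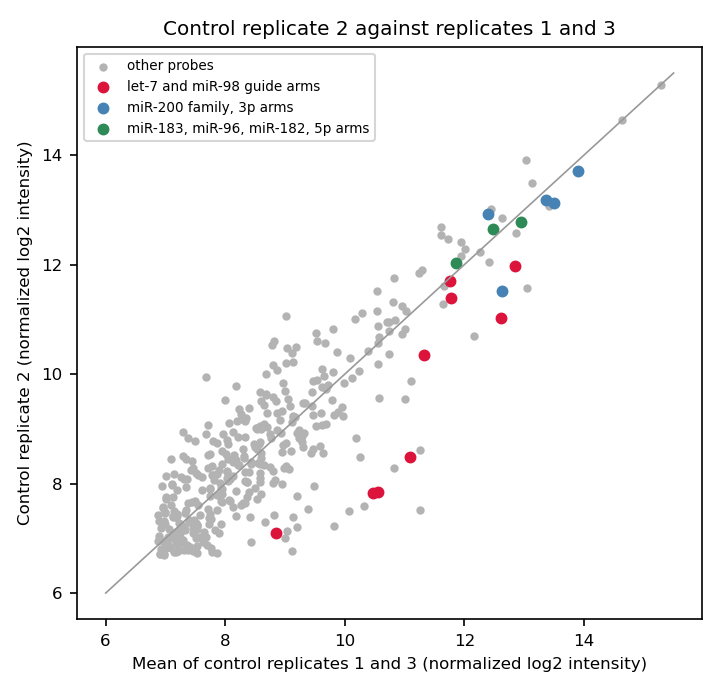
Each point is 1 of the 400 mouse miRNA probes detected on all control arrays, placed by its mean normalized log2 intensity on control replicates 1 and 3 (horizontal axis) and its value on replicate 2 (vertical axis). The 9 let-7 and miR-98 probes lie below the line of equality, from 0.06 to 2.71 under it, while the miR-200 and sensory cluster probes lie near it except miR-200b-3p.

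The strands of bright probes had features in common that the ranking did not use. Among the 23 of the 30 brightest with a matched sequence, 18 (78.3%) began with U, against 59.7% of the brightest 100, 43.2% of the 303 detected on all arrays, 32.0% of the 350 detected on none and 35.3% of all 801. The 18 include the near-identical strands of the miR-200 and let-7 families, so they are not independent. A first U is the base that the silencing protein Argonaute is known to bind best. Whether it bears on these levels was not tested. Strands with a first U held 63.3%, 55.7% and 63.7% of the signal of matched probes. Median GC content was 40.9% in the brightest 30, 45.5% in the brightest 100, 47.6% in the detected and 50% in the undetected. Probes for strands with at least 40% G were detected on all arrays in 29.5% of cases, against 41.5% of those with under 20% G.

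Some bright probes target strands so alike that their signals may not be separate. Of the 23 matched strands among the 30 brightest, 10 had another mouse mature miRNA within 2 base differences. miR-141-3p and miR-200a-3p were such a pair, as were miR-200b-3p and miR-200c-3p, and miR-29a-3p and miR-29c-3p. let-7g-5p lay within 2 differences of let-7a-5p, let-7f-5p and let-7i-5p, and let-7e-5p of let-7a-5p, let-7c-5p and let-7f-5p. For these probes neither a single level nor the summed share of the family is free of this, since a strand bound by several probes is counted on each. The extent of such binding was not tested. miR-9-3p, miR-9-5p, miR-125a-5p, miR-125b-5p and the 3 strands of the sensory cluster had no such neighbour.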

How the data were processed

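Total RNA of the bulb was labelled with the dye Hy3 by an Exiqon miRCURY kit, per the labels' protocols. Per the file headers, the deposited intensity of each spot is given as foreground and as foreground minus background. The scanner, the image software and the array version are not stated in the labels or headers. A second deposited table holds ratios. Each control column of it matched, within 1% for 100% of its values, the median foreground minus background of a probe's spots divided by a factor of 383, 367.5 or 382 on control replicates 1, 2 and 3. The deposited ratio is therefore linear and rises with the level, scaled by 1 factor per array. What the factor stands for was not identified. Its column medians were 0.0979, 0.0476 and 0.0196, and 924, 18 and 186 values were blank.

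A level is the deposited foreground minus background intensity averaged over the 4 spots of a probe. Levels were ranked within each array, and shares are percentages of an array's summed mouse miRNA level, with values under 0 set to 0. For the spread between arrays, spots were corrected with normexp (offset 50), averaged, quantile normalized over the 1027 mouse miRNA probes and put on the log2 scale (R 4.3.3, limma 3.58.1). Names were those of the array's design, and RefSeq tables of GRCm38.p6 gave sequences and positions for 801 of them. A name for several mouse miRNAs was kept as 1 probe (22 probes). All columns of per-sample values were matched to a sample (0 unmapped). The calculations were tested on simulated data.

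Named were the 30 probes with the smallest mean rank, the 10 seed families with the largest share and up to 4 probes of each. Also named were up to 4 detected members of each marker list (the brightest where none was detected) and the 10 probes with the largest SD between arrays. The 10 paired hairpins with the brightest arm and the 3 probes to either side of the detection limit were named too. Other miRNAs named were chosen after their values were seen. The members and lists were chosen with earlier results of these data known. No test was run, since only the control group is described. The alternatives were the detection limit, the median over spots, foreground alone, normexp, the deposited ratios, other scalings, probes with several names left out, and leaving out each array.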

Additional observations from a re-analysis of the deposited data

Results flagged for a closer look

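Signal was present in features outside the mouse miRNA probes. Of 57 probes for miRNAs of mouse cytomegalovirus and mouse gammaherpesvirus, 10 were at the detection limit or above on all 3 control arrays, where 0 of 7 negative control probes were. The brightest, mghv-miR-M1-8, had 930.25, 2045.75 and 441.75, and the next, mghv-miR-M1-7-3p, had 696.75, 502.75 and 224.25. Of the 1495 features without a name in the deposited table, 286 (19.1%) were detected on all control arrays. Of these, 17 were brighter than the 30th mouse miRNA probe on every array and 1 was brighter than the second, and the maxima were 35813.5, 40303.25 and 26523. On replicates 1 and 3 the maximum was above the level of miR-124-3p (29495 and 24206). What they bind cannot be said from the table.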

How the results depend on the processing

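Over 9 results, 66 of 69 recalculations stayed within the limits set for a change. Values within those limits could still differ clearly. With the deposited ratios the median SD between arrays was 0.474, against 0.33. With a detection limit of 100, 82 hairpins had a brighter 3p probe on all arrays, against 111. With a detection limit of 100 the number of mouse miRNA probes detected on all arrays was 255, against 400 at the limit of 30 (334 at 50). With the 99th percentile of empty spots as each array's limit, an alternative chosen after seeing the data, it was 466. With normexp (offset 50) in place of subtraction, 32.0 probes on average held 50% of the signal, against 21.0. Without control replicate 2 the median SD between arrays was 0.144, against 0.33. Leaving out each array in turn gave 411 to 435 detected probes, 30.3% to 38.0% of the signal in the 10 brightest, 26 to 28 probes shared among the 30 brightest, 4.79% to 6.72% for miR-9-3p, 4.87% to 7.41% for the let-7 seed, and a median SD of 0.144 to 0.36. No paired analysis was possible because only 1 group is described. The number of arrays, 3, limits the precision of every SD, and saturation makes the share of miR-124-3p on replicate 2 a lower bound.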

Other observations

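Probes that rested on few spots were found mainly on control replicate 3, where 13 detected probes had a single spot at the limit or above. One of them was miR-295-3p, an embryonic stem cell miRNA, whose spots there read -1, 1, 0 and 2550, giving a mean level of 637.5, while its levels on replicates 1 and 2 were -3.5 and 1.5. miR-1943-3p differed most between replicates 1 and 3, with spots from 1918 to 2074 on replicate 1, from 509 to 701 on replicate 2, and of 145, 147, -67 and 156 on replicate 3.

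Some families outside the 10 largest seed shares were also measured. The AAAGUGC seed of the miR-17 family, known from proliferating cells, held 0.81% ± 0.21 of the signal with 5 of 6 probes detected, led by miR-106b-5p with 1548.0, 1432.5 and 1608.5 and miR-93-5p with 1229.8, 366.5 and 1129.2. miR-17-5p itself had 216.8, 291.5 and 246.2. The miR-221 and miR-222 seed held 0.56% ± 0.14, with miR-222-3p at 1832.5, 1333.8 and 1768.8. The seed of miR-99b, miR-99a and miR-100 held 0.63% ± 0.24, and its 3 probes had 1528.0, 1130.0 and 1633.2 (miR-99b-5p), 761.2, 315.0 and 670.5 (miR-99a-5p), and 663.0, 186.5 and 632.0 (miR-100-5p). Replicate 2 was the lowest array for all 3.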
